A study of Mus musculus with 13 samples.

Results

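Expression of 10 genes for proteins of the secondary and tertiary granules of neutrophils was followed in sorted mouse bone marrow cells, across 5 groups of arrays. The genes were Ltf, Ngp, Camp, Lcn2, Mmp8, Mmp9, Chil3, Pglyrp1, Retnlg and Lyz2. Membership was set by name, from the probe-to-gene table: a probe set counted where it was listed with exactly 1 of these genes. That gave 97 probe sets of 208397 listed with 1 gene, and 10 genes of 15123 with at least 3 probe sets. All 10 passed the filter on low values that left 10586 tested genes. The mice were Bl/6 Taconic. The mCG-PR mice expressed the fusion protein PML-RARA from the murine cathepsin G locus, Ctsg, a gene of early myeloid cells, and the controls were their wild-type (WT) littermates. Groups were mCG-PR KLS cells of 6 weeks (3 arrays), mCG-PR KLS cells of 13 weeks (2), WT KLS cells of 12 to 13 weeks (4), mCG-PR SLAM cells of 7 weeks (2) and WT SLAM cells of 6 weeks (2). Each array held RNA of 1 mouse. No WT KLS mouse was 6 weeks old, so genotype and age cannot be told apart for the mCG-PR KLS mice of that age. Nor can age be told apart from genotype in SLAM cells (7 against 6 weeks). Between WT SLAM and WT KLS cells (6 against 12 to 13 weeks) it cannot be told apart from the sort. The same holds for mCG-PR SLAM against mCG-PR KLS cells of 6 weeks, and comparisons of genotype effects carry these age gaps. KLS cells carry Kit and Sca1 and lack lineage markers, a gate that holds stem and multipotent progenitor cells. The SLAM gate uses receptors of the SLAM family to enrich stem cells with long-term potential. The gates used here are not described in the labels. Neither sort is meant to hold neutrophils.

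Neutrophils load their granules in a fixed order as they mature. Primary granules fill at the promyelocyte stage with proteins such as myeloperoxidase, secondary granules at the myelocyte stage with lactoferrin and cathelicidin, and tertiary granules later with gelatinase. The factor C/EBPε, product of Cebpe, is needed for the secondary granule programme, and mature neutrophils carry the most S100A8 and S100A9. In acute promyelocytic leukaemia, PML-RARA goes with a halt of maturation at the promyelocyte, before secondary granules form. All values below are log2 intensities of a gene, the median over its probe sets on an array. A difference of 1 is therefore 2-fold. Levels are compared only between arrays for the same gene.

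Among the members, Ltf encodes the iron-binding protein lactoferrin, Camp the antimicrobial cathelicidin and Ngp a granule protein of the same family. The genes Camp, Ngp and Ltf start within 1.17 Mb of each other on chromosome 9. Any part of their position in the values was not tested. These 3 were the members whose mCG-PR SLAM arrays all lay below both WT SLAM arrays, beside 18.8% of all tested genes. Their promoters are therefore shown: the 250 bases before each gene's start from RefSeq (build GRCm38.p6), 5′ to 3′ on the gene's strand. Capitals mark matches, on either strand, to the C/EBP-like motif TTNNGNAA. The windows are chr9:111019042-111019291 (plus strand) for Ltf, chr9:110419558-110419807 (plus strand) for Ngp and chr9:109849457-109849706 (minus strand) for Camp.
Ltf: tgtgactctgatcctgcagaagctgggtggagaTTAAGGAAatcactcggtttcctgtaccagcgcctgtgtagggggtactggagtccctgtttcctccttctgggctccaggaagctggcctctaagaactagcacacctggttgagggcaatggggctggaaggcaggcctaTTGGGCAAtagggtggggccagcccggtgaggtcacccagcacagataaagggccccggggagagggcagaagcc
Ngp: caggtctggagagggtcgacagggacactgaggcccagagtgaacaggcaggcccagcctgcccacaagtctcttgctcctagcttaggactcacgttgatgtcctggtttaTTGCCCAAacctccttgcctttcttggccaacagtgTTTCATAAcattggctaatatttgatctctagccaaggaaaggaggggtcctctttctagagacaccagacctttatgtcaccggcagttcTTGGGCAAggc
Camp: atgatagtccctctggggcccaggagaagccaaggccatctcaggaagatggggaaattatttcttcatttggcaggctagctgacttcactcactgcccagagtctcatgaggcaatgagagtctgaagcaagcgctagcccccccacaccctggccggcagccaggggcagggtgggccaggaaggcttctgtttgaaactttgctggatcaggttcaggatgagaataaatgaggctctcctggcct
In the Ltf window the motif starts 217 and 75 bases before the gene's start. The Ngp window holds 3 matches, which start 138, 102 and 11 bases before it, and the Camp window holds none. Of the 9 members with a promoter in the table, 7 hold the motif in these 250 bases, as do 36.8% of 32851 promoters. The windows of Camp and Pglyrp1 hold no match, and Mmp9 has no entry. A match is a description of letters, not a binding site.

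Before the comparisons, 1 array has to be named. WT SLAM replicate 2 had the highest value of all 13 arrays for 9 of the 10 members, while it was the highest array for 13.6% of all tested genes. It was also the highest array for 77 of the 97 member probe sets. Chil3 was the exception, with 8.97 on that array and 9.20 in WT KLS replicate 2. WT SLAM replicate 2 exceeded WT SLAM replicate 1 by 1.51 (Camp) to 3.44 (Lcn2), with a median of 2.27 over the members and 0.10 over all tested genes. Only 8.15% of tested genes exceeded replicate 1 by more than 1 on that array. Ranked by the gap between that array and the next highest, Lcn2 was at place 2 of 10586 genes, Ngp at 3, Retnlg at 4, Pglyrp1 at 5 and Ltf at 7. Mmp8 was at place 13, Camp at 22, Lyz2 at 77, Mmp9 at 263 and Chil3 at 3046. The summed intensity of 5 neutrophil markers that are not members (S100a8, S100a9, Cxcr2, Csf3r and Itgam) was 15127 there, 7190 on WT SLAM replicate 1 and 1927 to 9562 on the other arrays. S100a8 and S100a9 made up 14321 of that sum and were highest on that array, while Cxcr2, Csf3r and Itgam were each exceeded on another array. Among marker lists of other mature cells, the B cell list was the one with all its measured genes highest on the same array. Of the others, 3 of 11 monocyte and macrophage markers, 2 of 8 T and NK cell markers, 2 of 3 erythroid markers, 1 of 5 dendritic cell markers and none of 6 eosinophil, basophil and mast cell markers were highest there. The sum of the 5 B cell markers was 963 on that array, 395 on replicate 1 and 421 to 617 on the others, and Cd79a, part of the B cell receptor, had 7.47 in replicate 2 and 6.34 in replicate 1. The part of other cells in the granule gene values of WT SLAM replicate 2 was not tested. In RNA of sorted pools, more cells of a type and more RNA per cell cannot be told apart. The members' differences that rest on this array are given with and without it.

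**Figure D1:**
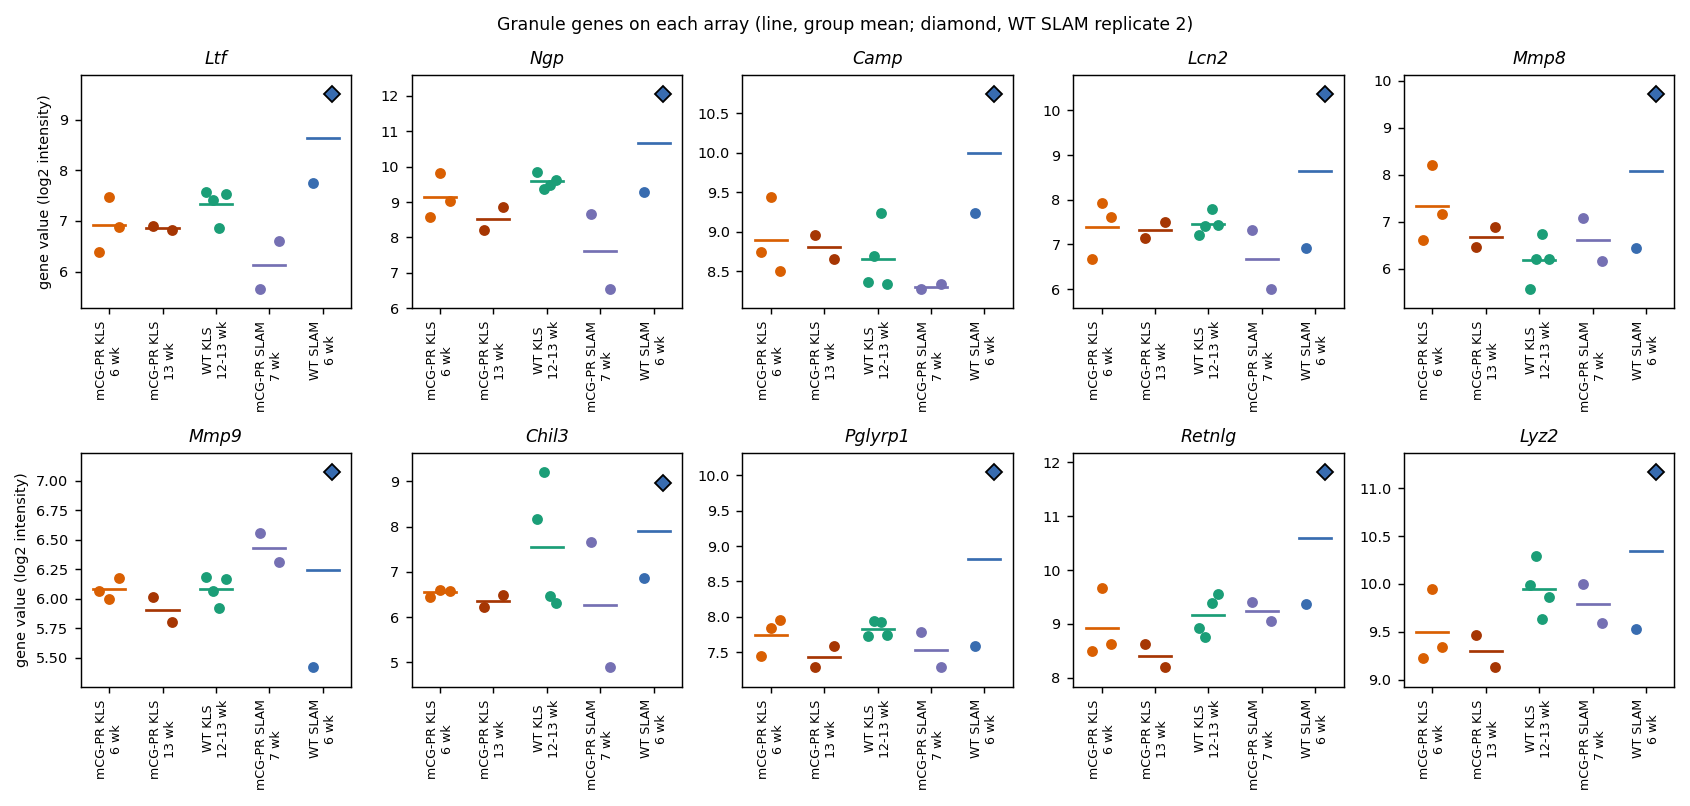
Log2 intensity (y axis, a scale of its own per gene) of the 10 granule genes on each of the 13 arrays, by group (x axis). Points are arrays and lines group means, and the diamond is WT SLAM replicate 2, which is the highest point for every gene but Chil3.

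In KLS cells the first question was whether granule genes differed between mCG-PR and WT mice. No member passed the test, by limma across all tested genes, in the comparison of the 5 mCG-PR KLS arrays of both ages with the 4 WT KLS arrays. Among all tested genes, 9 passed (0.0850%). Unadjusted p was under 0.05 for 5 of the 10 members (Ltf, Ngp, Mmp8, Chil3 and Lyz2) and for 1278 of all tested genes. Of the members, 8 had a negative and 2 a positive difference, mCG-PR minus WT, beside 32.1% of all tested genes with a negative one. The median difference was -0.33 for the members, against 0.09 for all tested genes. The sum of the 5 neutrophil markers was 3614 to 7559 on the mCG-PR KLS arrays, against 6573 to 9562 on the WT KLS arrays, and its part in the granule gene values was not tested. S100a8 and S100a9 carried that sum: without them it was 431 to 579 on the mCG-PR KLS arrays, against 406 to 601 on the WT KLS arrays. Csf3r and Itgam had positive differences, 0.09 and 0.12, and Cxcr2 a negative one.

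The secondary granule genes are given in turn, and differences between them were not tested. Ngp had 8.58, 9.81 and 9.03 in mCG-PR KLS cells of 6 weeks and 8.21 and 8.86 at 13 weeks, against 9.86, 9.36, 9.49 and 9.62 in WT KLS cells. All mCG-PR arrays but 1 lay below the WT arrays, and the exception, 6 weeks replicate 2, was nearly as high as the highest WT array. The difference was -0.69 ± 0.24 (standard error from limma, n = 5 and 4, adjusted p = 0.288). Ltf had 6.40, 7.47 and 6.88 at 6 weeks and 6.90 and 6.82 at 13 weeks in mCG-PR KLS cells, against 7.58, 7.41, 6.86 and 7.53 in WT KLS cells. The groups overlapped through mCG-PR 6 weeks replicate 2 and WT replicate 3, and the difference was -0.45 ± 0.20 (limma, adjusted p = 0.384). Lcn2, whose product binds bacterial siderophores, ranged from 6.67 to 7.92 in mCG-PR KLS cells, against 7.22 to 7.80 in WT KLS cells. The WT arrays lay inside the mCG-PR range, and the difference of -0.09 had a 95% interval of -0.55 to 0.36.

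Mmp8, the neutrophil collagenase, had a positive difference by its gene value and a negative one, -0.28, by its brightest probe set. Its gene value was 6.62, 8.20 and 7.16 in mCG-PR KLS cells of 6 weeks, and 6.46 and 6.89 at 13 weeks. WT KLS cells had 5.57, 6.21, 6.74 and 6.22, with a mean of 6.18 that lay near the filter's cut of 5.996. Only WT replicate 3 reached into the mCG-PR range. The difference was 0.88 ± 0.30 over both ages, with an adjusted p of 0.264 by limma. For the mice of 6 weeks alone it was 1.14 ± 0.32 (limma, adjusted p = 0.187), and 0.71 without mCG-PR 6 weeks replicate 2. At 6 weeks alone, 4 of all tested genes passed (0.0378%) and no member did, with 1332 genes and 2 members, Mmp8 and Lyz2, at an unadjusted p under 0.05. Mmp9, the gelatinase of tertiary granules, had low values that hardly varied among KLS arrays. Its mean over all arrays was 6.13, at percentile 5.84 of the tested genes and near the filter's cut of 5.996. So near the floor, a lack of difference says little. Mmp9 lay between 5.80 and 6.17 in mCG-PR KLS cells and between 5.92 and 6.18 in WT KLS cells. Its difference of -0.07 had a 95% interval of -0.34 to 0.20.

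Lyz2, the lysozyme of neutrophils and macrophages, had 9.22, 9.95, 9.34, 9.47 and 9.13 in mCG-PR KLS cells, against 9.99, 10.29, 9.63 and 9.86 in WT KLS cells. Of the mCG-PR arrays, 6 weeks replicate 2 alone reached the WT range, and the difference was -0.52 ± 0.18 (limma, adjusted p = 0.266). A further 9 probe sets were listed with both Lyz1 and Lyz2 and were left out of Lyz2. Their median was 9.94 to 10.18 in mCG-PR KLS cells and 10.03 to 10.57 in WT KLS cells, so these arrays overlapped too. Retnlg, a resistin-like secreted protein of myeloid cells, ranged from 8.20 to 9.66 in mCG-PR KLS cells and from 8.77 to 9.56 in WT KLS cells. Pglyrp1, which binds bacterial peptidoglycan, ranged from 7.29 to 7.96 in mCG-PR KLS cells and from 7.72 to 7.94 in WT KLS cells. The 95% intervals of their differences, -0.97 to 0.09 for Retnlg and -0.54 to 0.12 for Pglyrp1, both took in 0.

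**Figure D2:**
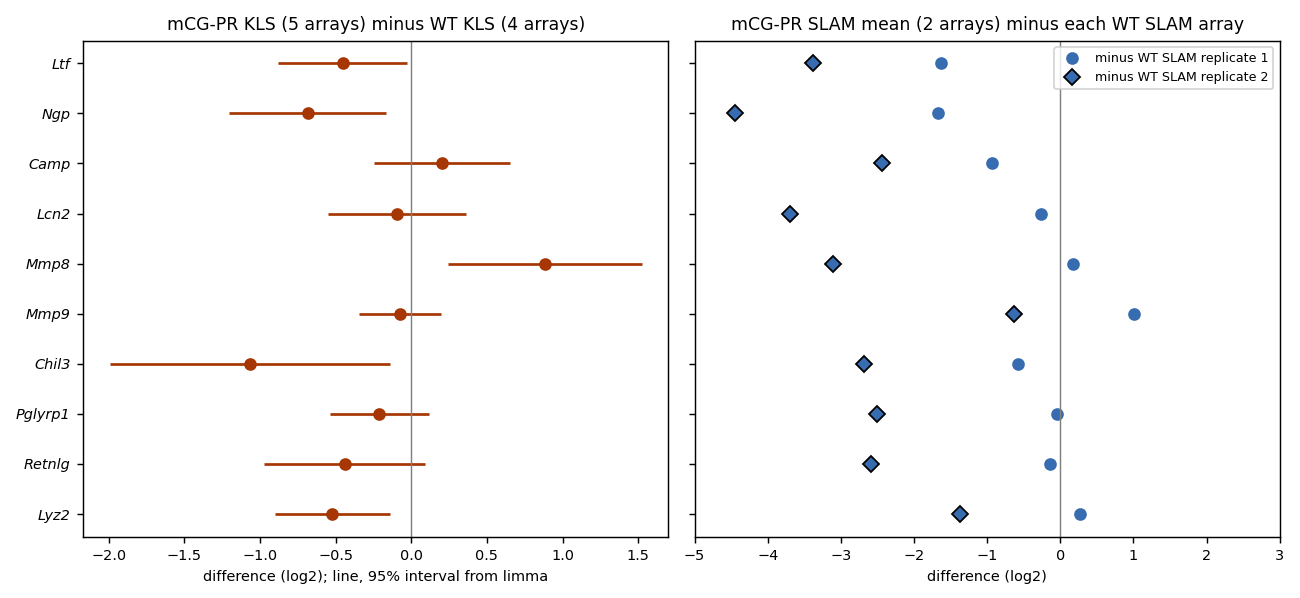
Left, difference in log2 intensity between mCG-PR and WT KLS cells for each gene, with limma's 95% interval. Right, the mean of the 2 mCG-PR SLAM arrays minus each WT SLAM array: all 10 differences are negative against WT SLAM replicate 2 (diamonds) and 7 of 10 against replicate 1 (circles).

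Chil3, a chitinase-like lectin also made by macrophages, differed between the WT KLS mice of 13 and those of 12 weeks. These were replicates 1 and 2 and replicates 3 and 4, so age cannot be told apart from other differences between these mice. In the other sort, the 2 mCG-PR SLAM mice, both of 7 weeks, had 7.65 and 4.90. In mCG-PR KLS cells Chil3 had 6.45, 6.60 and 6.59 at 6 weeks and 6.23 and 6.50 at 13 weeks. In WT KLS cells it had 8.17 and 9.20 in the 2 mice of 13 weeks, and 6.47 and 6.31 in the 2 of 12 weeks. The WT mice of 12 weeks lay inside the mCG-PR range, and those of 13 weeks lay above every mCG-PR KLS array. With all 4 WT arrays the difference was -1.07 ± 0.43 (limma, adjusted p = 0.354). Against the WT mice of 13 weeks alone it was -2.21 (limma, adjusted p = 0.00130), and against those of 12 weeks alone 0.08 (limma, adjusted p = 0.939). The WT mice of 13 weeks are those with the high Chil3 values, so that low p is no separate support. All 11 Chil3 probe sets had a negative difference with all 4 WT arrays. The paralog Chil4, which fell under the filter on low values, had 4.52 to 5.90 in mCG-PR KLS cells, 6.60 and 7.63 in WT KLS cells of 13 weeks and 4.25 and 4.98 in those of 12 weeks. Without WT KLS replicate 2, the higher of the 2, the Chil3 difference was -0.51.

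At 13 weeks, 4 members lay wholly below WT without passing the test. In the comparison of the 2 mCG-PR KLS arrays of 13 weeks with the 4 WT KLS arrays, no member passed and 1 of all tested genes did (0.00945%). Unadjusted p was under 0.05 for 4 members and for 1427 of all genes. Both mCG-PR arrays were below all WT arrays for 4 members (Ngp, Pglyrp1, Retnlg and Lyz2), beside 10.2% of all tested genes. For Ngp the difference was -1.05 ± 0.28 (limma, adjusted p = 0.180). It was -0.75 ± 0.30 for Retnlg, -0.64 ± 0.23 for Lyz2 and -0.40 ± 0.18 for Pglyrp1, with adjusted p of 0.316, 0.265 and 0.362 by limma. The median over the members was -0.44, against 0.05 over all tested genes. Set directly against the mCG-PR KLS arrays of 6 weeks, those of 13 weeks had a negative difference for all 10 members. So did 60.2% of all tested genes. The members' median was -0.19, against -0.07 for all genes. None passed (limma, lowest adjusted p among members 0.428), while 1 of all tested genes passed (0.00945%). No member and 1283 of all genes had an unadjusted p under 0.05 there.

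One array of 6 weeks lay high in that comparison. mCG-PR KLS 6 weeks replicate 2 was the highest of the 5 mCG-PR KLS arrays for 8 of the 10 members, beside 28.2% of all tested genes. On the same array Cebpe had 7.99, against 6.24 to 6.96 on the other 4 mCG-PR KLS arrays and 6.80 to 7.35 on the WT KLS arrays. Mpo, the myeloperoxidase of primary granules, had 12.00 there and 10.62 to 11.44 on the other mCG-PR KLS arrays, and Cybb, a subunit of the phagocyte oxidase, 7.85 and 6.18 to 7.40. Without that array the median member difference between 13 and 6 weeks was -0.15, with 6 negative and 4 positive. Ltf, Camp, Lcn2 and Lyz2 were then positive, at 0.22, 0.18, 0.19 and 0.020. Between mCG-PR KLS cells of both ages and WT KLS cells it was -0.43 without that array. The sum of the 5 neutrophil markers was 7559 there and 3614 to 4708 on the other 4 mCG-PR KLS arrays. The sum of 6 eosinophil, basophil and mast cell markers was 3888 there, 668 to 1205 on the other mCG-PR KLS arrays and 482 to 932 on the WT KLS arrays. The part of these cells in the granule gene values was not tested.

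The probe sets of a gene did not always differ in the same direction. Of the 97 member probe sets, 62 had a negative difference between mCG-PR and WT KLS cells of both ages, beside 38.8% of all probe sets. None passed in limma's fit on single probe sets (background 0 of 208397), with 25 of the 97 and 9.05% of all probe sets at an unadjusted p under 0.05. Probe sets of a gene share RNA and arrays, so they are not independent and these counts only describe them. All 11 of Chil3 had WT KLS replicates 1 and 2 above the other 7 KLS arrays. Every probe set of Ngp (5), Chil3 (11), Retnlg (5) and Lyz2 (6) had a negative difference. Those of Ngp lay between -0.54 and -0.01, while its gene value, a median taken on each array, differed by -0.69. For Mmp8, 12 of 14 were positive, and its brightest probe set was among the 2 that were not, at -0.28. Mmp9 had 8 negative and 9 positive probe sets.

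For Camp the brightest probe set and the other 4 parted. By its gene value Camp had 8.75, 9.44, 8.50, 8.96 and 8.66 in mCG-PR KLS cells, against 8.36, 8.69, 9.24 and 8.34 in WT KLS cells. That difference was 0.20 ± 0.21, with groups that overlapped in part (limma, adjusted p = 0.729). WT KLS replicates 1 and 4 lay below every mCG-PR KLS array, and mCG-PR 6 weeks replicate 2 lay above every WT KLS array. Its brightest probe set, 5348039, had 8.75, 9.65, 9.07, 9.33 and 8.66 in mCG-PR KLS cells, against 10.99, 11.16, 10.52 and 10.96 in WT KLS cells. All 5 mCG-PR arrays lay below all 4 WT arrays there, by -1.82 ± 0.24, while the other 4 Camp probe sets had differences of 0.15 to 0.31. Among all probe sets it ranked 5 of 208397 by p, with an adjusted p of 0.298 by limma. In SLAM cells this probe set had 8.28 and 8.55 in mCG-PR mice, against 9.36 and 12.76 in WT mice. In all, 4 member probe sets had every mCG-PR KLS array below every WT KLS array, beside 0.701% of all probe sets. The other 3 were probe sets of Ltf, with differences of -1.64, -1.12 and -1.12, although 6 of the 21 Ltf probe sets were positive and its brightest had 0.11. A further Ltf and an Mmp8 probe set lay wholly above WT, beside 2.68% of all probe sets. Where these probe sets lie in the genes was not analysed here.

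**Figure D3:**
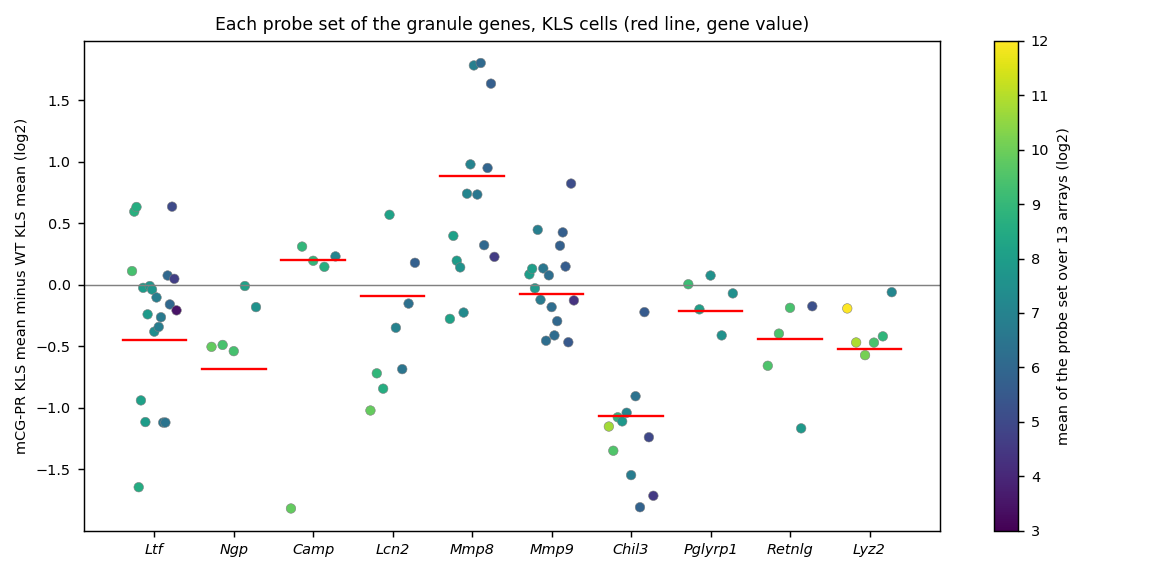
Difference between mCG-PR KLS and WT KLS means (log2, y axis) for each of the 97 probe sets, by gene (x axis), coloured by mean log2 intensity over the 13 arrays, with the difference of the gene value as a red line. The brightest Camp probe set lies at -1.82 and its other 4 between 0.15 and 0.31.

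**Figure D4:**
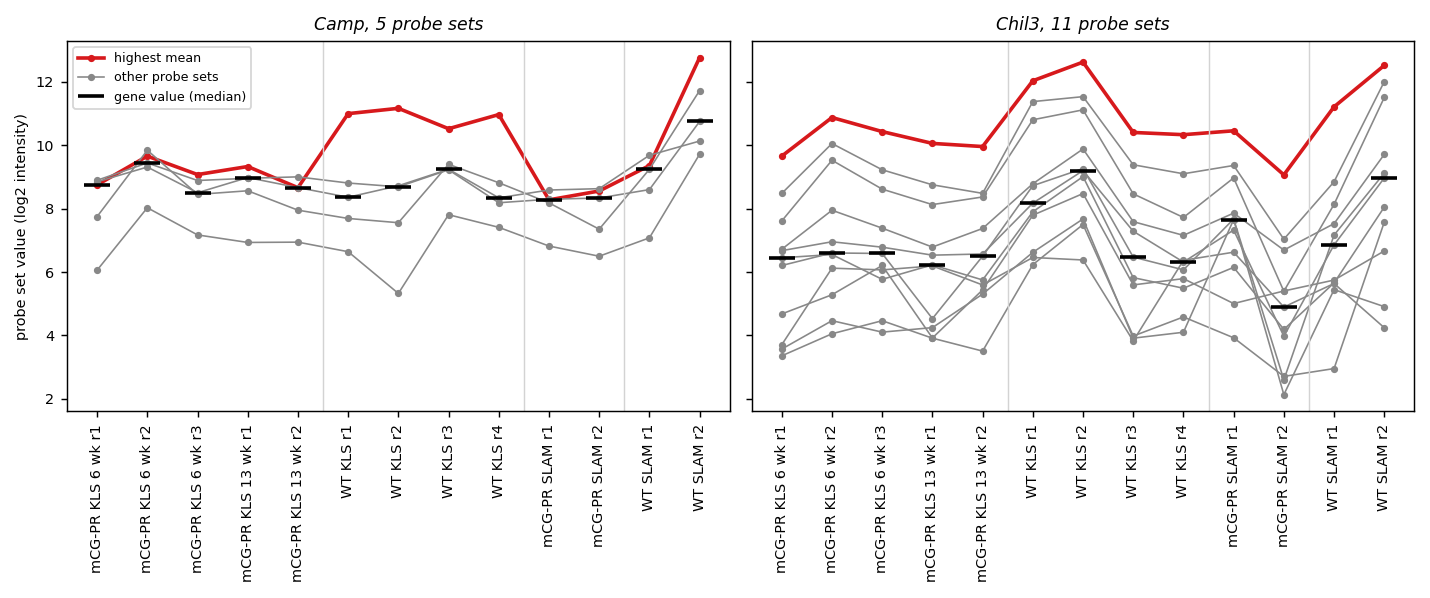
Log2 intensity (y axis) of each probe set of Camp (left) and Chil3 (right) on each array (x axis, r for replicate), with the probe set of highest mean in red, the others in grey and the gene value as a black bar. The red Camp line is lower on the mCG-PR KLS than on the WT KLS arrays where the grey ones are not, and among the KLS arrays all 11 Chil3 lines are highest in WT KLS replicates 1 and 2.

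In SLAM cells the differences were larger and rested mostly on 1 WT array. No gene passed in the comparison of 2 mCG-PR with 2 WT SLAM arrays (0 of 10586, background 0%), by limma, with 664 genes and 3 members at an unadjusted p under 0.05. On simulated data of this size the same fit recovered none of the changes put in, so the lack of calls says nothing about the members. The median over the members was -1.55, against -0.02 for all genes, with 9 negative and 1 positive, beside 52.3% of all tested genes negative. Measured against WT SLAM replicate 1 alone, the median was -0.20. Against WT SLAM replicate 2 alone it was -2.64.

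Ltf, Ngp and Camp were the members with both mCG-PR SLAM arrays below both WT SLAM arrays, beside 18.8% of all tested genes. Ltf had 5.66 and 6.59 in mCG-PR SLAM cells, against 7.75 and 9.51 in WT SLAM cells, a difference of -2.50 ± 0.66 (limma, adjusted p = 0.750). Without WT SLAM replicate 2 it was -1.62. Ngp had 8.66 and 6.55 in mCG-PR SLAM cells, against 9.27 and 12.05 in WT SLAM cells, a difference of -3.06 ± 1.09, and -1.67 without that array (limma, adjusted p = 0.788 with it). Camp had 8.28 and 8.33 in mCG-PR SLAM cells, against 9.24 and 10.75 in WT SLAM cells, a difference of -1.69 ± 0.53, and -0.93 without it (limma, adjusted p = 0.773 with it). The mCG-PR arrays of Camp were nearly equal, while those of Ngp lay 2.11 apart.

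For the remaining members at least 1 mCG-PR SLAM array lay above WT SLAM replicate 1. Lcn2 had 7.33 and 6.01 in mCG-PR SLAM cells, against 6.93 and 10.36 in WT SLAM cells. Mmp8 had 7.07 and 6.17 in mCG-PR SLAM cells, against 6.45 and 9.72 in WT SLAM cells. Mmp9 had 6.56 and 6.31 in mCG-PR SLAM cells, against 5.42 and 7.07 in WT SLAM cells. Both mCG-PR values of Mmp9 lay between the WT values, 1 of the mCG-PR values of Lcn2 and of Mmp8 lay below both, and Mmp9 was the single member with a positive difference, 0.19. Chil3 had 7.65 and 4.90 in mCG-PR SLAM cells, against 6.86 and 8.97 in WT SLAM cells. Pglyrp1 had 7.78 and 7.29 in mCG-PR SLAM cells, against 7.58 and 10.04 in WT SLAM cells. Retnlg had 9.40 and 9.06 in mCG-PR SLAM cells, against 9.38 and 11.82 in WT SLAM cells. Lyz2 had 9.99 and 9.59 in mCG-PR SLAM cells, against 9.53 and 11.17 in WT SLAM cells. Without WT SLAM replicate 2 the differences of Mmp8, Mmp9 and Lyz2 were 0.17, 1.01 and 0.26, and those of Lcn2, Chil3, Pglyrp1 and Retnlg lay between -0.58 and -0.04.

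A test of the difference itself asked whether the genotype effect in SLAM cells differed from that in KLS cells, the mean of both ages. No gene passed (0 of 10586, background 0%; limma), with 836 genes and 4 members at an unadjusted p under 0.05. The 4 members were Ltf, Ngp, Camp and Mmp8. The estimate was -2.05 ± 0.67 for Ltf (limma, adjusted p = 0.409), and -1.17 without WT SLAM replicate 2. It was -1.88 ± 0.65 for Camp, and -1.13 without that array. For Ngp it was -2.31 ± 0.90, and -0.92 without it, and for Mmp8 -2.28 ± 1.01, and -0.65 without it. The median over the members was -1.45 with the array and 0.02 without it.

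The sorted populations themselves were set apart by part of their own markers. Of 5 tested KLS markers, 2 were called lower in WT SLAM than in WT KLS cells, by limma. Of 4 tested SLAM markers, 1 was called higher and 1 lower. Cd48, a SLAM family receptor that long-term stem cells lack, differed by -3.70 ± 0.35 between WT SLAM and WT KLS cells (limma, adjusted p = 5.8e-05). Flt3, a receptor of multipotent progenitors, differed by -2.67 ± 0.26 (limma, adjusted p = 5.8e-05), and Slamf1, which encodes the SLAM receptor, by 1.71 ± 0.41 (limma, adjusted p = 0.0363). Without WT SLAM replicate 2 these were -4.13, -2.57 and 1.81, and Slamf1 no longer passed (limma, adjusted p = 0.174). In the same comparison no granule gene passed, with 330 of all tested genes past the test (3.12%) and an unadjusted p under 0.05 for 1879 genes and 5 members. On simulated data the fits across sorted populations made more false calls than the threshold allows, which bears on each call between SLAM and KLS cells. All 10 members had a positive difference, WT SLAM minus WT KLS, where 54.9% of all tested genes had a negative one. Their median was 1.13, against -0.05 for all genes. Without WT SLAM replicate 2 the median was -0.28, with 4 positive and 6 negative. Ltf was the member whose WT SLAM arrays both lay above all WT KLS arrays, beside 12.9% of all tested genes. Its difference was 1.29 ± 0.48 (limma, adjusted p = 0.160), and 0.41 without that array. The other members with the lowest p were Camp, at 1.34 ± 0.46, Mmp8, at 1.90 ± 0.72, and Retnlg, at 1.44 ± 0.57. Those values were 0.58, 0.26 and 0.22 without WT SLAM replicate 2. With WT SLAM replicate 2 as the lone WT SLAM array, the members' median was 2.19. That array was named above for its high member values, so this median is no separate support.

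In mCG-PR mice the share of members with a negative difference between the sorted populations was near that of all tested genes. No member passed in the comparison of mCG-PR SLAM cells with mCG-PR KLS cells of 6 weeks (limma, lowest adjusted p among members 0.143), with 1386 of all tested genes past the test (13.1%). Unadjusted p was under 0.05 for 1 member, Ngp, and for 2821 genes. The members had 7 negative and 3 positive differences, beside 63.3% of all tested genes with a negative one. Their median was -0.43, against -0.19 for all genes. Ngp, at -1.53 ± 0.66, had 8.66 and 6.55 in mCG-PR SLAM cells, against 8.58, 9.81 and 9.03 in mCG-PR KLS cells. Both Camp values in mCG-PR SLAM cells, 8.28 and 8.33, lay below the 3 KLS values of 8.50 to 9.44, as was so for 35.0% of all tested genes. Both Mmp9 values, 6.56 and 6.31, lay above the KLS values of 6.00 to 6.17, as was so for 13.2%.

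Around the granule genes, other neutrophil genes were read from lists grouped by function. S100a8, a subunit of the calprotectin dimer of mature neutrophils, had 10.30, 11.46, 10.71, 10.47 and 10.60 in mCG-PR KLS cells, against 12.07, 12.20, 11.65 and 12.05 in WT KLS cells. It was 1 of the 9 genes that passed in KLS cells of both ages, at -1.28 ± 0.20 (limma, adjusted p = 0.0213), with no overlap between groups. Its adjusted p was 0.0561 to 0.108 on leaving out WT KLS replicate 1, 2 or 4, either mCG-PR array of 13 weeks, or replicate 1 of those of 6 weeks, while the difference itself stayed between -1.27 and -1.18 in those fits. S100a9, its partner, had a difference of -0.53 ± 0.20 that did not pass. S100a8 was the single call among 23 tested late neutrophil genes other than the members, of which 13 had a positive and 10 a negative difference (median 0.04, against 0.09 for all genes). None of 13 tested primary granule genes passed, with 8 positive and 5 negative. Mpo had 10.81, 12.00, 11.22, 10.62 and 11.44 in mCG-PR KLS cells, against 10.32, 10.17, 11.12 and 10.15 in WT KLS cells, a difference of 0.78 ± 0.26. Mpo thus had the sign of Mmp8 and not that of Ngp, Ltf or Lyz2. Prtn3 (proteinase 3) and Ctsg differed by 0.07 ± 0.15 and 0.31 ± 0.27.

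Among 11 tested regulators of granule genes, none passed in KLS cells of both ages, with 9 positive and 2 negative differences (median 0.20). At 6 weeks alone 1 of them passed, Irf8, a factor of the monocyte branch that is named here after its value was seen. Cebpe had 6.50, 7.99 and 6.96 in mCG-PR KLS cells of 6 weeks and 6.24 and 6.60 at 13 weeks, against 7.06, 7.35, 7.23 and 6.80 in WT KLS cells. Both arrays of 13 weeks lay below all WT arrays, at -0.69 ± 0.31, beside 10.2% of all tested genes. Among the members this held for Ngp, Pglyrp1, Retnlg and Lyz2, and a link with Cebpe was not tested. In SLAM cells Cebpe had 6.56 and 7.12 in mCG-PR mice, against 6.00 and 7.30 in WT mice. Over both ages in KLS cells the Cebpe difference was -0.25 ± 0.27. Gfi1, a repressor needed for neutrophil maturation, and Csf3r, the receptor of granulocyte colony-stimulating factor, had differences of 0.12 ± 0.17 and 0.09 ± 0.15. Cxcr2 and Cybb had -0.28 ± 0.16 and 0.28 ± 0.27. None of the 5 tested paralogs of members and none of the 6 tested inhibitors and partners of granule proteins passed there. Pml and Rara, the fusion's parent genes, did not separate the genotypes in KLS cells, at 0.20 ± 0.14 and 0.25 ± 0.17, and their probe sets were not placed against the fusion's breakpoints.

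Most primary granule genes had a negative difference between WT SLAM and WT KLS cells. Of 13 tested, 11 were negative and 2 positive (median -1.12), and 4 were lower and none higher by limma, beside 293 lower genes of all tested (2.77%). Those 4 were Cst7, Nkg7, Plac8 and Serpinb1a, named after their values were seen. Without WT SLAM replicate 2, 12 were negative and 1 positive (median -1.33), and the 4 that passed were Mpo, Nkg7, Plac8 and Serpinb1a. The members' median was 1.13 with that array and -0.28 without it, so its sign was opposite to that of the primary granule genes with the array alone. Mpo had 7.02 and 9.81 in WT SLAM cells, against 10.15 to 11.12 in WT KLS cells, and the higher value was again that of replicate 2. Its values in mCG-PR SLAM cells were 6.38 and 6.36. Even on WT SLAM replicate 2, the array highest for most members, Mpo stayed below every WT KLS array. Of 14 measured primary granule genes 1 was highest on that array, and of 23 late neutrophil genes that are not members 12 were. The share of all tested genes was 13.6%. Most primary granule genes were lower in WT SLAM than in WT KLS cells, so their count says little about that array. The mean log2 value of the 14 primary granule genes was 7.81 there and 7.00 on WT SLAM replicate 1.

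Across the 9 KLS arrays the members shared a pattern only in part. Of the 45 pairs of members, 34 had a positive Pearson r, with a median of 0.38, and the arrays share genotype, age and sort. The highest r was that of Ltf with Lyz2 (0.86) and the lowest that of Camp with Mmp9 (-0.56). The mean r with the other 9 members was 0.46 for Ngp, 0.43 for Lyz2 and 0.41 for Ltf, Pglyrp1 and Retnlg, but 0.06 for Camp and Mmp9 and 0.05 for Mmp8. Among all tested genes that are not members, the one closest to Lyz2 was S100a9 (r = 0.94, rho = 0.90, n = 9 arrays). The closest gene was Nudt16l1 for Ltf (0.97), Sp4 for Ngp (0.96), Csnk2b for Camp (0.91), Txnrd2 for Lcn2 (0.95) and Ap3s1 for Mmp8 (0.98). It was Ccnl2 for Mmp9 (0.97), Selp for Chil3 (0.96), Uxt for Pglyrp1 (0.95) and Rb1cc1 for Retnlg (0.95). With 10586 genes and 9 arrays, such values are a description of these arrays.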

How the data were processed

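RNA of flow-sorted marrow cells, 1 mouse per array, was amplified from 20 ng and hybridised to Affymetrix Mouse Exon 1.0 ST arrays, per the labels' protocols. The deposited table gives intensities on a linear scale (2.34 to 21748) of 229581 probe sets on 13 arrays. RMA and the build mm9 are named in the submitters' processing notes, without settings. Array medians were 98.6 to 115.3. Precision is limited by how few arrays each group has.

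Here log2 was taken with no further scaling. Probe sets were named through GEO's platform annotation: 208397 had 1 gene, 3965 several and 17219 none, and only the first kind was used. A gene's value was the median over its probe sets where there were 3 or more, and the 10586 genes with a mean above 5.996, the 30th percentile, were tested. Chil3 is listed there under an older symbol. Updating symbols through RefSeq left 58 as they were.

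Groups were compared with limma 3.58.1 in R 4.3.3 (lmFit, eBayes), two-sided, with Benjamini-Hochberg adjustment over all tested genes and a threshold of 0.05. KLS comparisons used the 9 KLS arrays and the SLAM comparison the 4 SLAM arrays, since replicates correlated at 0.950 to 0.966 among KLS arrays and at 0.821 and 0.828 among SLAM arrays. Comparisons across populations used all 13 with array weights by population. Values after ± are standard errors. The fits were tested on simulated data, where those across populations made more false calls than the threshold allows. The replicate number did not pair samples: deviations of same-numbered arrays correlated at -0.07 to 0.08.

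The members, gene lists, comparisons and motif were chosen with earlier results of these data known. Named genes were the 10 members, the 3 genes most correlated with each over the KLS arrays (the closest is given), and S100a8, S100a9, Cebpe, Gfi1, Csf3r, Mpo, Prtn3, Ctsg, Cxcr2, Cybb, Pml and Rara. Also named from the gene lists, outside that choice, were Cd48, Flt3, Slamf1, Cd79a, Chil4 and Itgam, which do not stand for their lists. Ly6g was not analysed here. Alternatives are in the closing section; that with the brightest probe set and the fit on single probe sets were added after seeing the data.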

Additional observations from a re-analysis of the deposited data

How the results depend on the processing

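The result that 0 members passed held in each comparison under most alternatives, and Mmp8, Ngp, Retnlg and Lyz2 kept their sign in KLS cells of both ages under each one run, save Mmp8 with the brightest probe set. With WT KLS mice of 13 weeks only, 1 member (Chil3) passed at 6 weeks, at 13 weeks and over both ages, with 25, 10 and 27 of all genes called, and Lcn2 over both ages had 0.061. These 3 comparisons then hold only the WT KLS mice with high Chil3 values, so the Chil3 calls are no separate support. With WT KLS mice of 12 weeks only, 0 genes were called in each of those 3, and Chil3 had 0.15 at 6 weeks and 0.080 over both ages. With the brightest probe set, Camp had -1.82 over both ages (1 member called, 15 genes), Ltf 0.11, Mmp8 -0.28 (-0.37 at 6 weeks), Mmp9 0.084 and Pglyrp1 0.0041. It gave 0 genes at 6 weeks, at 13 weeks and for 13 against 6 weeks, 101 genes and 1 member (Ltf) for WT SLAM against WT KLS, 671 for mCG-PR SLAM against mCG-PR KLS, and 5 for the difference of genotype effects. With the mean of probe sets, Camp had -0.19 and Mmp9 0.029 over both ages and Mmp9 -0.15 in SLAM cells, and genes called were 17 over both ages, 2 at 13 weeks, 0 for 13 against 6 weeks, 1 in SLAM cells and 531 for WT SLAM against WT KLS. In 1 unweighted fit of all arrays, 275 genes and 2 members (Ltf and Ngp) passed for mCG-PR against WT SLAM cells, 1229 genes and 1 member (Camp) for WT SLAM against WT KLS, 2394 genes for mCG-PR SLAM against mCG-PR KLS and 90 for the difference of genotype effects. That fit gave 1 gene at 6 weeks and none at 13 weeks (0), for 13 against 6 weeks (0) or over both ages (0). With weights by sorted population in a fit of all arrays, genes called were 12 at 6 weeks, 0 at 13 weeks and 3 in SLAM cells. Without the filter, and with genes of at least 1 probe set, 1 gene was called at 6 weeks and 0 at 13 weeks and for 13 against 6 weeks. The filter at the 50th percentile gave 11 genes at 6 weeks, 19 over both ages and 1 in SLAM cells. Quantile normalisation gave 1 gene at 6 weeks and 780 for mCG-PR SLAM against mCG-PR KLS, and subtraction of array medians gave 1, 0 at 13 weeks and 872. The replicate number, which did not pair samples, gave as a replicate block 1 gene at 6 weeks, 2 at 13 weeks, 1 over both ages, 189 for WT SLAM against WT KLS and 2 for the difference of genotype effects, and 0 members. S100a8 had adjusted p of 0.0016 to 0.433 by limma over its alternatives, and did not pass without the filter, with the replicate block, in either fit of all arrays or with WT KLS mice of 12 weeks only.

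Leaving out 1 array at a time, genes called ranged from 1 (without WT KLS replicate 2) to 43 (without WT KLS replicate 3) at 6 weeks, 0 to 14 at 13 weeks, 0 to 41 over both ages and 0 to 17 for 13 against 6 weeks. They ranged from 94 to 334 for WT SLAM against WT KLS, 398 to 1513 for mCG-PR SLAM against mCG-PR KLS and 0 to 4 for the difference of genotype effects. In these fits members passed for WT SLAM against WT KLS only without WT SLAM replicate 1. That fit leaves alone the array named for its high member values, so its calls are no separate support. The members' median ranged from -2.64 to -0.20 for mCG-PR against WT SLAM cells, from -0.28 to 2.19 for WT SLAM against WT KLS and from -2.45 to 0.021 for the difference of genotype effects. In each of these 3, WT SLAM replicate 1 and replicate 2 gave the ends. In SLAM cells the range was -1.37 to 0.26 for Lyz2, -3.10 to 0.17 for Mmp8 and -0.64 to 1.01 for Mmp9, and over both ages in KLS cells it was -0.23 to 0.082 for Lcn2. The causes of these changes were not tested.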
